A study of Oryctolagus cuniculus with 3 samples.

Results

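The genes described here are the guidance families of ephrins, semaphorins, slits and netrins with their receptors, in RCE1(5T5), a cell line of rabbit corneal epithelium, at 3 stages of its differentiation in culture. Members were the 67 gene names of 20536 in the tables that start with EPHA, EPHB, EFNA, EFNB, PLXN or NTN, start with SEMA, SLIT or ROBO and a digit, or are NRP1, NRP2, UNC5B, UNC5C, DCC or NEO1. RNA was sequenced once per stage: from cells not yet differentiated (day 4), from committed cells (day 6) and from cells that had differentiated terminally (day 10). All 3 cultures grew with mitomycin C-treated 3T3 cells (mouse fibroblasts used as feeders) in medium holding fetal calf serum, insulin, transferrin, hydrocortisone, triiodothyronine, cholera toxin, adenine and epidermal growth factor. The feeders were detached with EDTA before RNA was taken. Stage, days in culture and library cannot be told apart in this design, so differences are described without a test.

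Guidance molecules were named for steering axons, but epithelia use them too, to sort cells at borders, to hold cells together or push them apart, and to control migration after wounding. Ephrins sit on the cell surface and bind Eph receptor tyrosine kinases on neighbouring cells: ephrin-A ligands are held by a lipid anchor and mainly bind EphA receptors, while ephrin-B ligands span the membrane and mainly bind EphB receptors. Semaphorins signal through plexins, and most secreted ones need a neuropilin as co-receptor. Slits bind robos, and netrins bind DCC, neogenin and UNC5 receptors. The corneal epithelium is densely innervated by sensory axons and renews itself from its limbal border, and EPHA2 with its ligand ephrin-A1 has been described there.

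The libraries of days 4, 6 and 10 held 10171693, 12582706 and 10899578 fragments. Levels over time are given in CPM, fragments per 1e6 after trimmed-mean scaling. Of the 67 members, 56 reached 1 CPM in a library and count as measured, as do 12818 genes in all. The words rose and fell are kept for differences of log2(CPM + 1) of 2-fold or more, a scale that understates the change of low genes. Folds are ratios of CPM, with the exact 95% counting interval (Clopper-Pearson) in brackets; it covers counting error only, not the spread between cultures. No fragment was counted in any library for DCC, NTNG1, ROBO3, ROBO4 and SEMA3D, and 3 fragments, the limit that a count of 0 allows, equal 0.275, 0.249 and 0.283 CPM on days 4, 6 and 10. NTN3, NTN5, NTNG2, SEMA3G, SEMA5B and SEMA6A had fragments but stayed under the minimum.

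Of 11 measured markers of corneal and stratified epithelium, 6 rose and 0 fell on day 10 against day 4. KRT3, a keratin of the corneal pair, had 150 CPM on day 4, 954 on day 6 and 2018 on day 10, and PAX6, a regulator of eye identity, had 42.2, 127 and 358 CPM. KRT12, the partner keratin of KRT3, had 0 fragments on day 4 and 19.3 and 121 CPM on days 6 and 10. KRT5, CDH1, EPCAM and DSG3, which mark epithelia more widely, were lower on day 10 than on day 4 by differences of -0.21, -0.91, -0.41 and -0.67 on the log2 scale, short of the threshold. Most fibroblast and feeder markers moved the other way: of 19 measured, 16 fell and 1 rose on day 10 against day 4 (84.2% and 5.26%), beside 15.8% and 17.1% of all measured genes. The 1 that rose was THY1, with 19.6, 16.8 and 76.9 CPM on days 4, 6 and 10. The summed level of these markers was 7962, 5119 and 3209 CPM on the same days, with LUM and TCF21 at 0. In bulk RNA, fewer cells of a type and less RNA per cell cannot be told apart, and the part of these cells in the results below was not tested. Of 8 proliferation markers, 6 fell on day 10 against day 4.

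Between days 4 and 6 the guidance genes shifted in both directions. On day 6 against day 4, 9 of 56 measured members rose (16.1%), where 8.06% of all measured genes did, and 9 fell (16.1%), where 6.73% of all did. On day 10 against day 6, 4 members rose and 2 fell (7.14% and 3.57%), beside 8.25% and 7.1% of all genes on this scale. Over the whole interval 10 rose and 14 fell (17.9% and 25%), beside 17.1% and 15.8% of all genes. The members' median difference was 0.10, -0.14 and 0.05 on the log2 scale in these 3 comparisons, and that of all measured genes was 0, -0.01 and 0.01. The comparisons share libraries and are not separate results. Of the 56, 27 passed the threshold in at least 1 comparison and 29 in none. The number that fell on day 10 against day 6 rests on the added 1: with 0.1 in its place, 11 members fell (19.6%), beside 10.2% of all genes. The numbers on day 6 against day 4 also depend on the scale: under TPM 4 of 47 measured members rose (8.51%), beside 4.53% of all genes, and with an added 5 in place of 1, 5 members rose and 3 fell (8.93% and 5.36%), beside 3.68% and 3.52% of all.

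**Figure D1:**
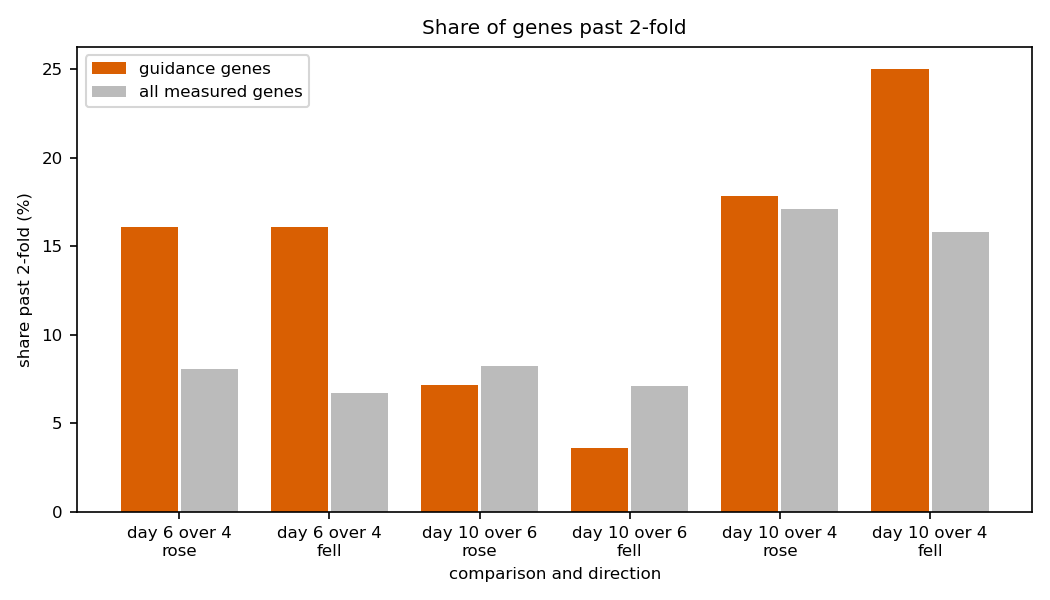
Share of genes past 2-fold in each comparison and direction (vertical axis, percent), for the 56 measured guidance genes (left bar of each pair) and all 12818 measured genes (right bar). The guidance bars stand at 16.1% in both directions on day 6 against day 4, beside 8.06% and 6.73%; on day 10 against day 6 they lie below the bars of all genes.

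Per coding length, the leading guidance gene changed with stage. Levels of different genes are compared in the deposited TPM (transcript abundance corrected for length and depth). EPHA2 led on day 4 with 71.9 TPM, followed by PLXNB2 with 48.9, EFNB1 with 48.6 and PLXNA1 with 34.7 TPM. On day 6 PLXNB2 led with 64.2 TPM, followed by EPHB6 with 61.2, EPHA1 with 60.2 and SEMA3F with 58.4 TPM. On day 10 EPHA1 led with 87.0 TPM, followed by EPHB6 with 63.0, PLXNB2 with 59.3 and SEMA3F with 55.8 TPM. EPHA2 ranked 7 on day 6 and 8 on day 10. The sum over all 67 members was 644, 641 and 659 TPM on days 4, 6 and 10. On this scale the leading member thus changed while the total moved little. PLXNB2, SEMA3F, SEMA4B, NRP2 and NTN4 each led their own role in every library. In CPM the sum was lowest on day 4, at 1990, against 2353 on day 6 and 2285 on day 10. TPM also shifts with the few most abundant genes: on that scale the median of all measured genes lay 0.30 lower (log2) on day 6 than on day 4, and 0.31 lower on day 10 than on day 4.

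**Figure D2:**
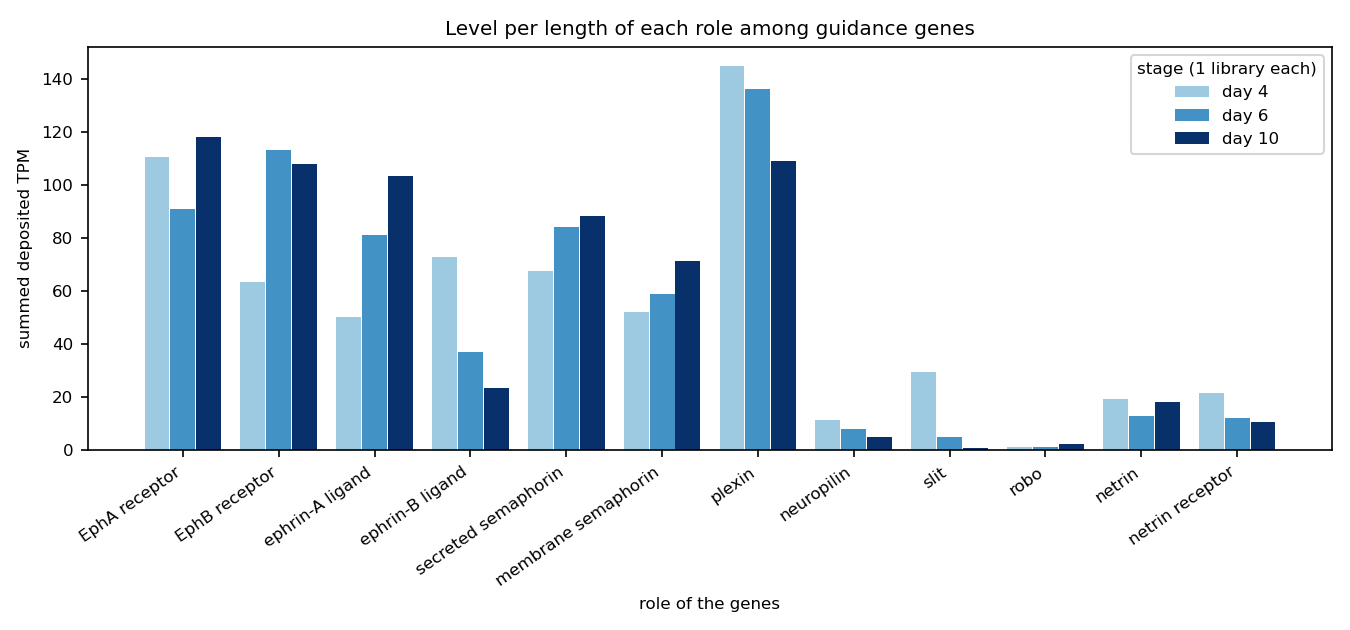
Summed deposited TPM of the genes of each role (vertical axis) on day 4, day 6 and day 10, 1 library each. Ephrin-A ligands stand at 50.2, 81.3 and 103.5 TPM, ephrin-B ligands at 73.0, 37.0 and 23.4 TPM, and slits at 29.3, 4.9 and 0.8 TPM.

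Among EphA receptors, EPHA1 and EPHA2 moved in opposite directions. EPHA2, a receptor of ephrin-A1 that is widespread in epithelia, had 209.5 CPM on day 4, 96.8 on day 6 and 98.3 on day 10. It was highest in the non-differentiated library, and it fell 2.16-fold [2.02 to 2.32] on day 6 against day 4. EPHA1, another receptor of ephrin-A1, had 82.1, 219.6 and 323 CPM on days 4, 6 and 10. Each library held more of it than the one before, and it rose 3.93-fold [3.65 to 4.24] on day 10 against day 4. In TPM, the ratio of EPHA1 to EPHA2 was 0.408 on day 4, 2.39 on day 6 and 3.43 on day 10. EPHA3 was low, with 36.6, 13.6 and 26 fragments. It fell 2.92-fold [1.54 to 5.86] on day 6 against day 4, a call lost with TPM, with read counts, with an added 5 and with its leading coding sequence alone. Under a minimum of 5 CPM EPHA3 was not measured. The other 5 measured EphA genes, EPHA4 to EPHA8, lay between 0.471 and 10.7 CPM in every library, and none of them rose or fell.

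Of the 5 EphB receptors, EPHB6 rose and the other 4 neither rose nor fell. EPHB6, whose kinase domain is catalytically inactive, had 47.5 CPM on day 4, 239 on day 6 and 250.2 on day 10. Its day 4 value stood apart from the 2 later ones, and the rise on day 6 against day 4 was 5.02-fold [4.57 to 5.52]. On day 10 against day 6 the ratio was 1.05 [0.994 to 1.11]. EPHB4, a receptor of ephrin-B2, had 64.7, 92.7 and 69.7 CPM. EPHB3 had 37.8, 65.6 and 69.9 CPM, EPHB2 39.8, 47.0 and 43.1 CPM, and EPHB1 11.5, 12.1 and 12.0 CPM. Per length, EPHB6 stood below EPHB4 on day 4 and above it on days 6 and 10, with TPM ratios of 0.79, 2.73 and 4.06. EPHA8, EPHB1 and EPHB3 have 1 coding sequence each but fractional counts in all 3 libraries, so some of their fragments were shared with other genes.

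On day 10 against day 4, 3 of 4 ephrin-A ligands rose and 2 of 3 ephrin-B ligands fell, beside 17.1% and 15.8% of all. EFNA1, the ligand of EPHA1 and EPHA2, had 5.78 CPM on day 4, 38.1 on day 6 and 31.0 on day 10. It rose 6.58-fold [5.05 to 8.71] on day 6 against day 4 and stayed above its day 4 level on day 10. EFNA3 had 4.68, 12.5 and 27.2 CPM and rose at both steps, by 2.68-fold [1.94 to 3.75] on day 6 against day 4 and by 2.17-fold [1.78 to 2.66] on day 10 against day 6. EFNA4 had 2.75, 5.14 and 9.14 CPM and rose 3.32-fold [2.18 to 5.18] on day 10 against day 4. EFNA5 did not follow them: its 20.6, 10.9 and 19.3 CPM dipped on day 6, and it neither rose nor fell. In TPM, EFNA5 led the ephrin-A ligands on day 4 with 29.2, and EFNA1 led on days 6 and 10 with 46.8 and 36.9.

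The genes EFNA1, EFNA3 and EFNA4 lie next to each other, with no protein-coding gene between them, in the RefSeq gene table of the mOryCun1.1 assembly. The 3 that rose on day 10 against day 4 are thus consecutive genes, and EFNA5 is not among them. Some other members are neighbours too. SEMA3A and SEMA3E are consecutive, and SEMA3A fell and then rose while SEMA3E neither rose nor fell. SEMA3B and SEMA3F have 3 protein-coding genes between them, and both rose on day 6 against day 4. EPHB2 and EPHA8 also have 3 between them, and neither of them rose or fell. ROBO1 and ROBO2 are consecutive too, and ROBO2 alone rose.

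EFNB1 was the most abundant ephrin on day 4. It had 49.7 CPM on day 4, 29.9 on day 6 and 14.9 on day 10, lower in each library than in the one before, and it fell 3.34-fold [2.8 to 4.02] on day 10 against day 4. EFNB3 had 22, 13 and 3 fragments and fell 7.15-fold [2.15 to 37.3] over the same interval. EFNB2 had 19.8, 15.2 and 13.8 CPM and did not pass the threshold. Summed over the family, ephrin-B ligands stood above ephrin-A ligands on day 4, at 73.0 against 50.2 TPM, and below them on day 10, at 23.4 against 103.5 TPM. With an added 5 in place of 1, the calls of EFNA3 at both single steps and those of EFNA4 and EFNB3 on day 10 against day 4 were lost, and TPM lost that of EFNA3 on day 6 against day 4. EFNB3 was not measured under a minimum of 5 CPM.

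**Figure D3:**
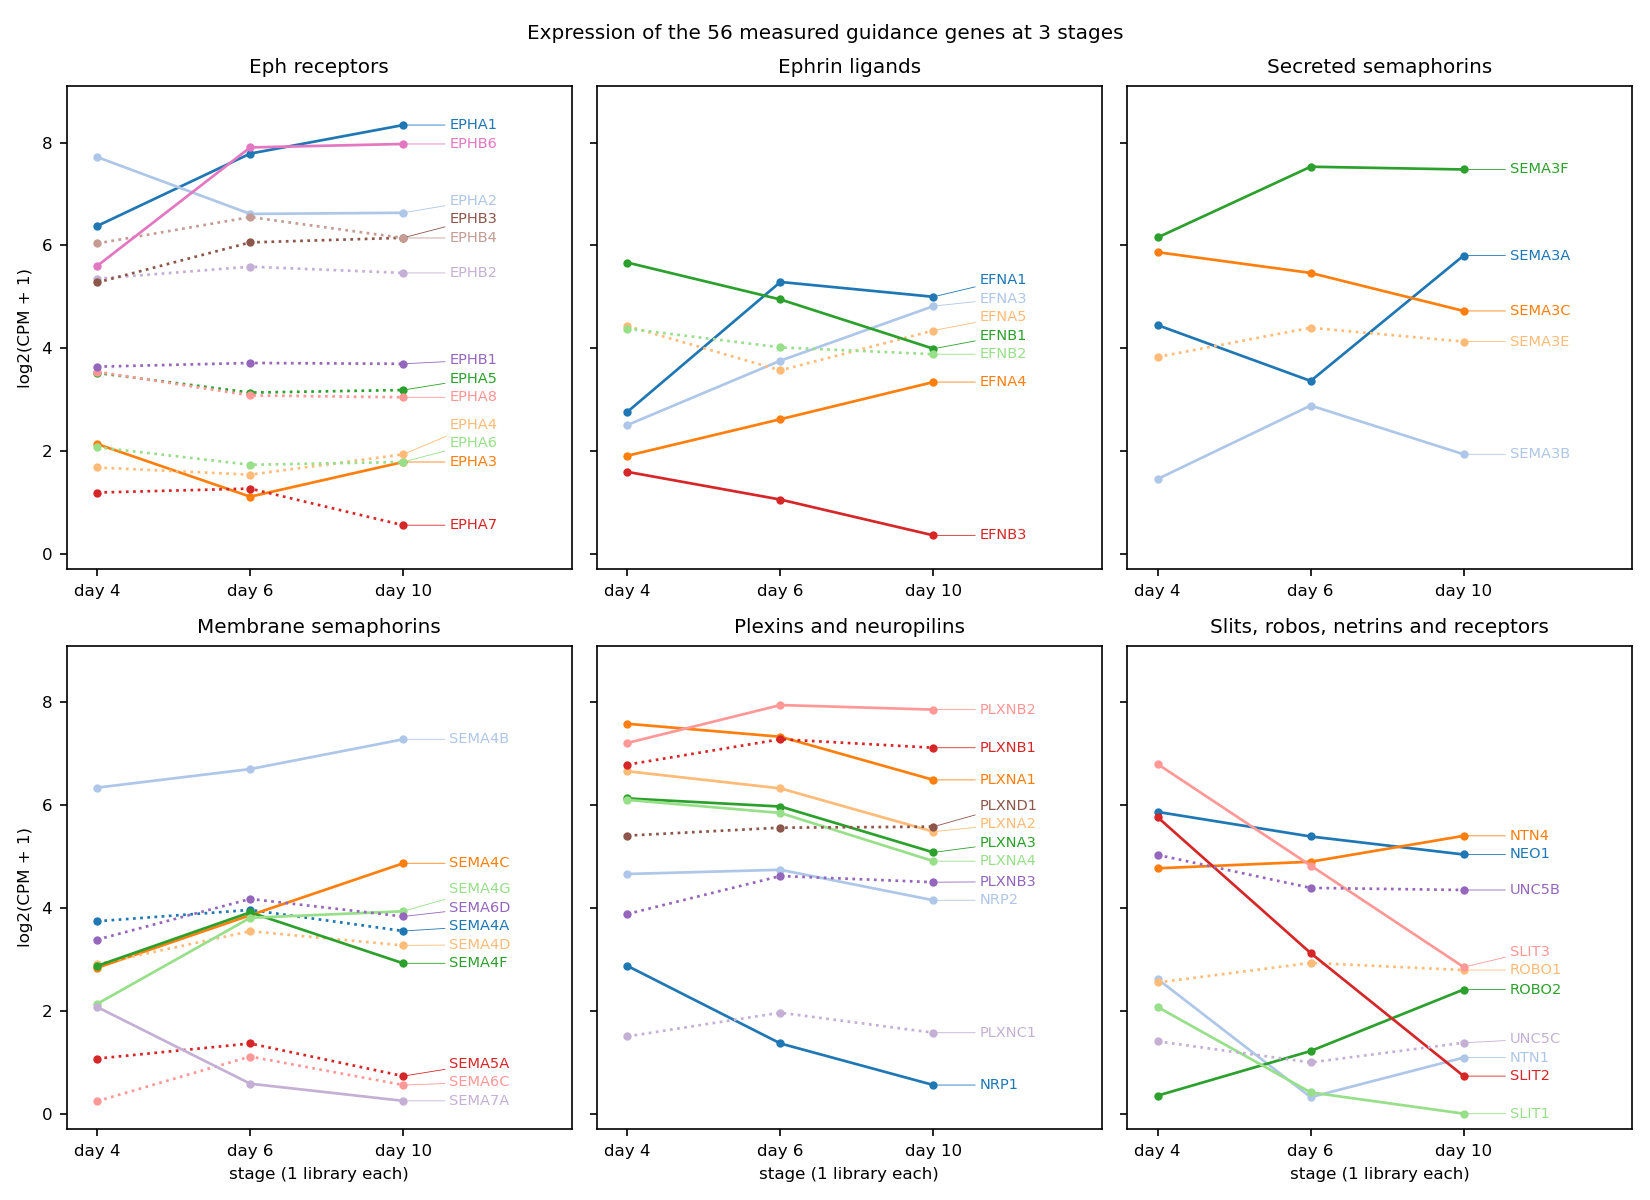
Level of each of the 56 measured guidance genes as log2(CPM + 1) (vertical axis) on days 4, 6 and 10, 1 library each, in panels by role. Solid lines are the genes with values in all 3 libraries in the text by the rule of naming, dotted lines the others; EPHA1 crosses EPHA2 between days 4 and 6, EFNA1 crosses EFNB1, and SLIT2 and SLIT3 drop steeply.

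The secreted semaphorins changed one by one. SEMA3F, a repellent ligand that signals mainly through neuropilin-2, was the most abundant of them per length in every library. It had 70.2 CPM on day 4, 184 on day 6 and 177 on day 10 and rose 2.62-fold [2.41 to 2.85] on day 6 against day 4. SEMA3A, the founding repellent of sensory axons, which binds neuropilin-1, had 20.8, 9.29 and 54.8 CPM. It was lowest in the committed library and highest in the terminally differentiated one: it fell 2.24-fold [1.78 to 2.84] on day 6 against day 4 and rose 5.9-fold [4.81 to 7.29] on day 10 against day 6. With the added 1, no other member fell at the earlier step and rose at the later one. NTN1 and EPHA3 fell at the earlier step too. Their ratios on day 10 against day 6 were 4.54 [1.23 to 25.1] and 2.11 [1.06 to 4.37], from few fragments.

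SEMA3C, a secreted ligand of both neuropilins, had 57.4 CPM on day 4, 43.1 on day 6 and 25.4 on day 10 and fell 2.26-fold [1.95 to 2.61] on day 10 against day 4. SEMA3B had 1.74, 6.39 and 2.83 CPM, highest in the committed library, and rose 3.66-fold [2.19 to 6.41] on day 6 against day 4. SEMA3E, which binds plexin-D1 without a neuropilin, had 13.2, 20.1 and 16.5 CPM and neither rose nor fell. The TPM ratio of SEMA3F to SEMA3C was 1.18 on day 4, 4 on day 6 and 6.49 on day 10. Under TPM the calls of SEMA3A and SEMA3F on day 10 against day 4 and of SEMA3B on day 6 against day 4 were lost. SEMA3B also lost its call with its leading coding sequence alone, and SEMA3A (day 6 against day 4) and SEMA3B with an added 5.

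Among 10 measured membrane semaphorins, 3 of class 4 rose and SEMA7A fell on day 6 against day 4, beside 8.06% and 6.73% of all. SEMA4B, the most abundant one in every library, had 80.1 CPM on day 4, 103 on day 6 and 155 on day 10; its ratio on day 10 against day 4 was 1.93 [1.78 to 2.1], just short of the threshold. SEMA4C, a ligand of plexin-B2, had 6.15, 13.5 and 28.3 CPM, more in each library than in the one before, and rose 4.6-fold [3.52 to 6.08] on day 10 against day 4. SEMA4G had 3.4, 13.0 and 14.3 CPM and rose 3.84-fold [2.67 to 5.65] on day 6 against day 4. SEMA4F had 6.33, 14.1 and 6.59 CPM, a peak in the committed library: it rose 2.23-fold [1.67 to 2.99] on day 6 against day 4, and its ratio on day 10 against day 6 was 0.468 [0.349 to 0.621].

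SEMA7A, a lipid-anchored semaphorin that binds plexin-C1 and integrins, went the other way, with 35, 6 and 2 fragments on days 4, 6 and 10. It fell 6.45-fold [2.69 to 18.8] on day 6 against day 4. The other 5 measured membrane semaphorins, SEMA4A, SEMA4D, SEMA5A, SEMA6C and SEMA6D, neither rose nor fell and lay between 0.184 and 17.1 CPM. SEMA4D, the ligand of plexin-B1, had 6.52, 10.7 and 8.67 CPM. The rises of SEMA4C and SEMA4F on day 6 against day 4 did not pass the threshold with plain library size, where the median of all measured genes lay 0.14 lower, and those of SEMA4C at both steps, SEMA4F and SEMA4G on day 6 against day 4 did not pass it under TPM. With an added 5, the calls of SEMA4C at both single steps, of SEMA4F and of SEMA7A were lost, and SEMA4F also lost its call with its leading coding sequence alone. SEMA7A was not measured under a minimum of 5 CPM.

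All 4 A-type plexins, the signalling partners of neuropilins, fell on day 10 against day 4, beside 15.8% of all measured genes. None of the other 5 plexins fell. PLXNA1 had 191 CPM on day 4, 160.1 on day 6 and 89.0 on day 10, PLXNA2 had 100.1, 79.3 and 43.8 CPM, PLXNA3 had 69.1, 61.9 and 32.9 CPM, and PLXNA4 had 67.7, 56.6 and 29.1 CPM. The folds on day 10 against day 4 were close to each other: 2.14 [1.98 to 2.32] for PLXNA1, 2.29 [2.05 to 2.55] for PLXNA2, 2.1 [1.85 to 2.39] for PLXNA3 and 2.33 [2.04 to 2.67] for PLXNA4. Most of the drop lay after day 6, and neither single step passed the threshold for any of them. These falls lie near the threshold, and that of PLXNA3 was lost with an added 5. The 6 proliferation markers that fell over the same interval did so by differences of -1.21 to -2.13 on the log2 scale; their part in the result was not tested.

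The B-type plexins, receptors of class 4 semaphorins, did not pass the threshold. PLXNB2 had 147 CPM on day 4, 246 on day 6 and 231 on day 10, PLXNB1 had 109.6, 155 and 138 CPM, and PLXNB3 had 13.8, 23.6 and 21.7 CPM. All 3 were higher on day 10 than on day 4 in CPM, but PLXNB1 was lower in TPM, at 15.4 on day 10 against 16.2 on day 4. PLXND1 had 41.5, 46.3 and 46.9 CPM, and PLXNC1 1.84, 2.9 and 1.98 CPM. The TPM ratio of PLXNB2 to PLXNA1 was 1.41, 2.8 and 4.67 on days 4, 6 and 10.

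NRP1, the neuropilin that SEMA3A binds, fell strongly. It had 69, 19 and 5 fragments, or 6.33, 1.58 and 0.471 CPM, and fell 4.02-fold [2.39 to 7.07] on day 6 against day 4 and 13.4-fold [5.49 to 42.7] on day 10 against day 4; an added 5 ended the call at the single step only. NRP2, to which SEMA3F binds, was at 24.3, 25.8 and 16.8 CPM and neither rose nor fell. The day 10 library held the most SEMA3A and the least NRP1 of the 3. NRP1 is also expressed by fibroblasts, and most fibroblast markers fell over the same days. The part of fibroblasts in this result was not tested.

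Slits had the lowest median difference of the 12 roles on day 10 against day 4, -3.95 on the log2 scale. SLIT3 had 1203, 330 and 66 fragments on days 4, 6 and 10, or 110.4, 27.4 and 6.22 CPM. It fell at both steps, by 4.03-fold [3.57 to 4.57] and by 4.4-fold [3.37 to 5.83], and by 17.8-fold [13.9 to 23.1] in all. SLIT2 had 582, 93.2 and 7.2 fragments, or 53.4, 7.71 and 0.659 CPM, and fell 6.92-fold [5.56 to 8.71] on day 6 against day 4 and 11.7-fold [5.46 to 29.9] on day 10 against day 6. SLIT1 had 35, 4 and 0 fragments and was at least 11.4-fold lower on day 10 than on day 4, against a floor of 3 fragments, or 8.77-fold at the near end of its counting interval. With the added 1, SLIT2 and SLIT3 were the only members that fell at both steps. Their calls held under every scaling, added value, minimum and coding sequence choice tried. NRP1 and SEMA7A fell at the earlier step too. On day 10 against day 6 their ratios were 0.299 [0.0872 to 0.827] and 0.379 [0.0374 to 2.12], from few fragments. SLIT1 lost its calls under TPM and with an added 5, and it was not measured under a minimum of 5 CPM.

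Slits are made by many mesenchymal cells, and most fibroblast markers fell in the same libraries. On day 10 against day 4 the differences were -5.04 for SLIT2 and -3.95 for SLIT3 on the log2 scale. The median of the 19 measured fibroblast markers was -1.72. Their largest fall was that of COL6A2, a chain of collagen VI, at -2.86, and their only rise that of THY1, at 1.92. COL1A1, a fibrillar collagen chain, had 542 CPM on day 4, 312 on day 6 and 265 on day 10, a difference of -1.03. Of 4 measured neuronal and glial markers, NEFM, NEFL and ELAVL4 also fell on day 10 against day 4. NEFM, a neurofilament chain, had 23.1, 11.6 and 6.03 CPM on days 4, 6 and 10, NEFL 4.04, 4.06 and 0.848 CPM, and ELAVL4 4.04, 2.49 and 1.51 CPM. SOX10 had 3.4, 1.99 and 4.33 CPM, and SYP and S100B were at 0 in every library. The part of fibroblast, feeder, neuronal or glial RNA in the slit and NRP1 values was not tested.

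The slit receptors stayed low. ROBO1 had 4.86, 6.63 and 5.93 CPM on days 4, 6 and 10 and neither rose nor fell. ROBO2 had 2.6, 15.6 and 46.3 fragments and rose 3.26-fold [1.81 to 6.18] on day 10 against day 6; its ratio on day 10 against day 4 was 15.7 [5.06 to 79.1]. The rise of ROBO2 was lost with an added 5. It was also lost with the leading coding sequence alone, since the fragments of ROBO2 are spread over 13 coding sequences. Under a minimum of 5 CPM ROBO2 was not measured. In TPM, both receptors together stood at 0.9, 0.9 and 2.2 on the 3 days.

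**Figure D4:**
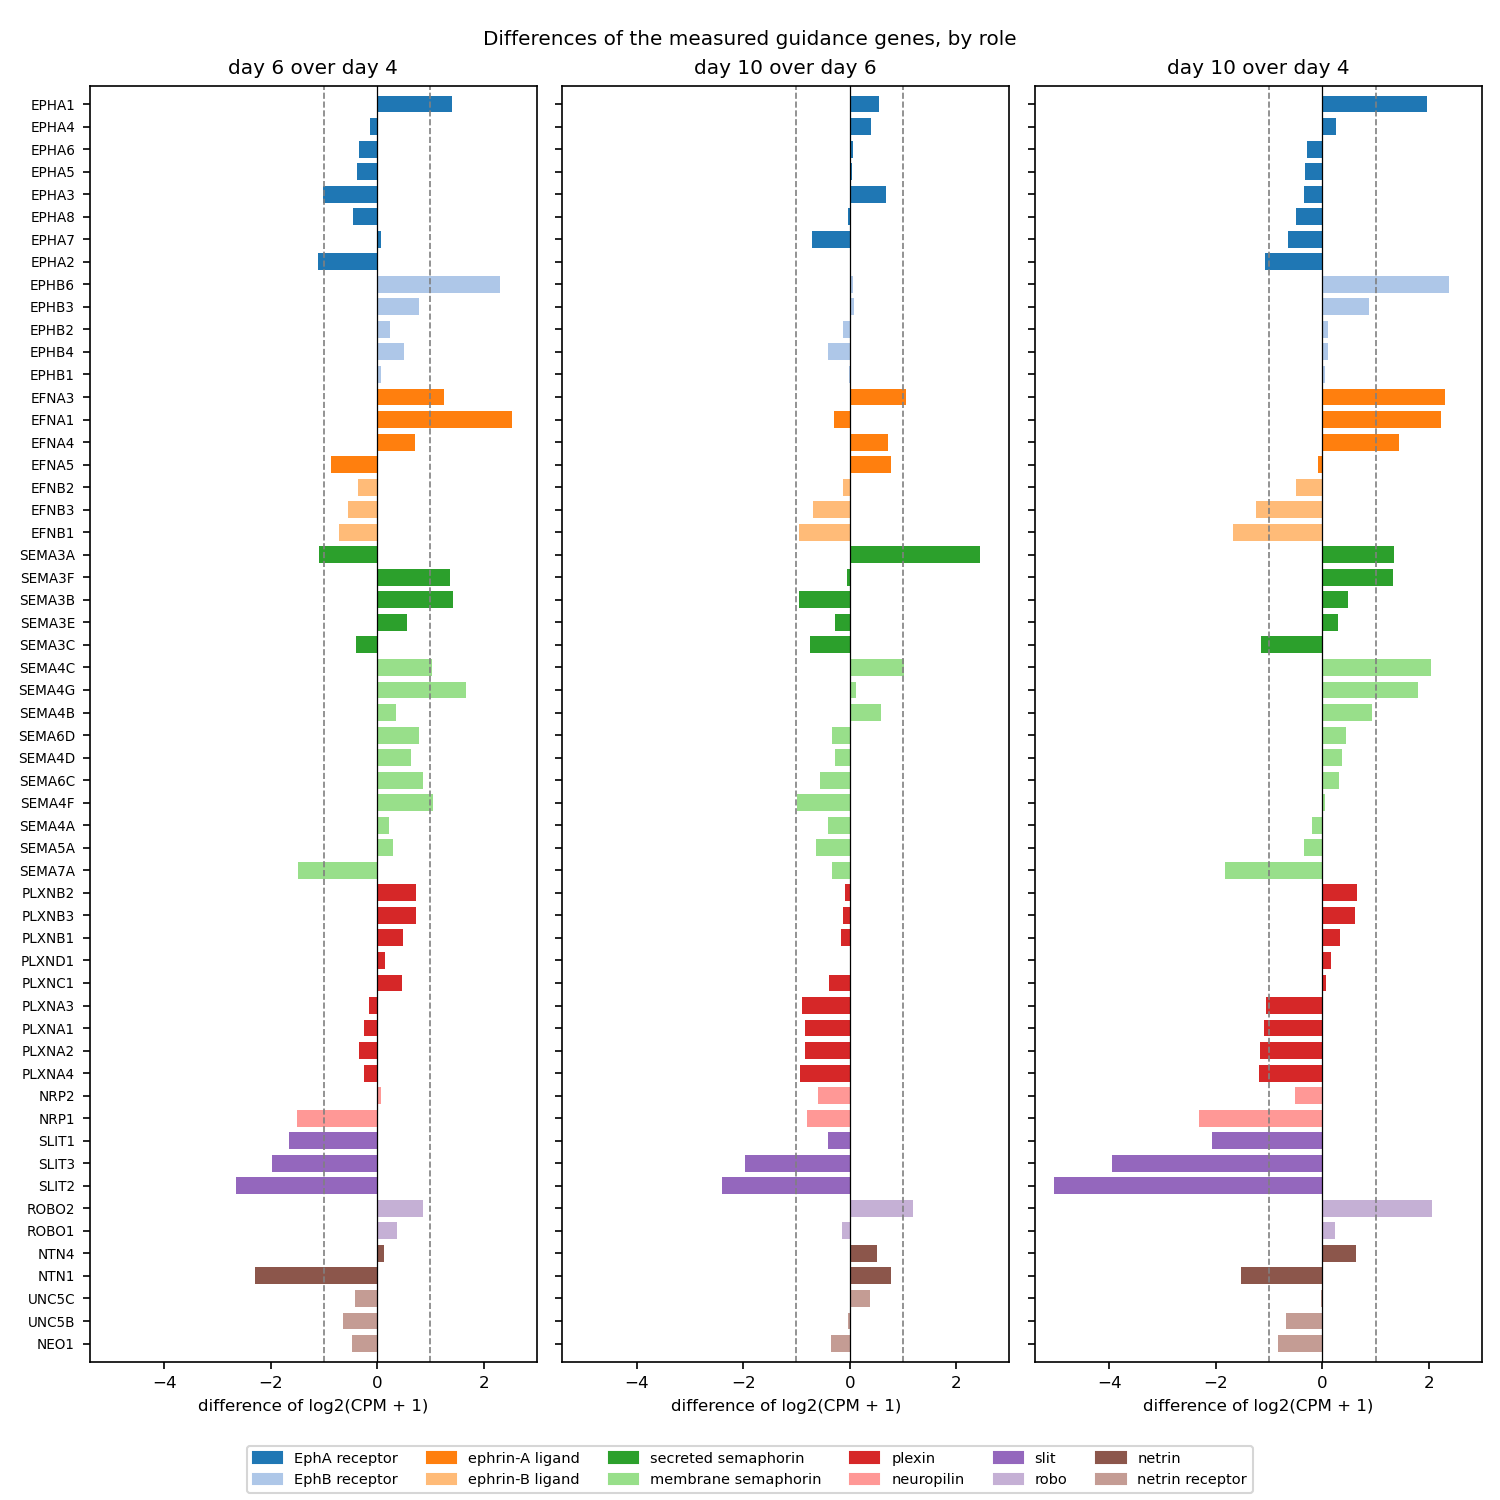
Difference of log2(CPM + 1) of each of the 56 measured guidance genes (horizontal axis) in the 3 comparisons, later over earlier stage, with genes in rows coloured by role; dashed lines mark 2-fold. The slits reach -2.64 on day 6 against day 4 and -5.04 on day 10 against day 4, and the 4 PLXNA genes form a block just past -1 in the last panel.

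Netrins split between a gene that fell and one that held. NTN1, the netrin that binds DCC, neogenin and UNC5 receptors, had 56, 3 and 12 fragments on days 4, 6 and 10. It fell 20.7-fold [6.71 to 103] on day 6 against day 4 and 4.55-fold [2.41 to 9.32] on day 10 against day 4, and both calls were lost with an added 5. NTN4, a laminin-binding netrin of basement membranes, had 26.3, 28.9 and 41.4 CPM and neither rose nor fell; it was the leading netrin in every library, with 14.9, 12.5 and 17.2 TPM. None of the 3 measured netrin receptors among the members passed the threshold. UNC5A, a netrin receptor outside the rule, had 10, 27 and 16 fragments on days 4, 6 and 10 and did not pass it either. NEO1, neogenin, had 57.4, 41.0 and 31.9 CPM, UNC5B had 346, 241 and 206 fragments, and UNC5C had 18, 12 and 17 fragments. NEO1 was the nearest to it, with a ratio of 0.556 [0.485 to 0.635] on day 10 against day 4.

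Downstream of these receptors, signalling genes passed the threshold in shares near or below those of all measured genes. A list of 101 adaptors, GTPase regulators, cytoskeletal effectors, proteases, and other ligands and co-receptors of guidance signalling had 84 measured genes. Of these, 6 rose and 5 fell on day 6 against day 4 (7.14% and 5.95%), beside 8.06% and 6.73% of all measured genes. On day 10 against day 6, 5 rose and 2 fell (5.95% and 2.38%), beside 8.25% and 7.1% of all. On day 10 against day 4, 9 rose and 14 fell (10.7% and 16.7%), beside 17.1% and 15.8% of all. By difference of log2(CPM + 1), the largest rises on day 10 against day 4 were those of ABLIM3, an actin-binding LIM protein, of VAV3, an exchange factor that Eph receptors recruit, and of GRB7, an adaptor. ABLIM3 had 1.65, 0.581 and 19.2 CPM, VAV3 had 6.06, 19.9 and 52.7 CPM, and GRB7 had 3.76, 11.9 and 34.7 CPM on days 4, 6 and 10. The largest falls on the same scale were those of MICAL1, an oxidase that takes actin filaments apart downstream of plexin-A, with 15.8, 16.1 and 4.62 CPM, of DOK1, an adaptor, with 2.57, 1.66 and 0.377 CPM, and of ENAH, an actin regulator, with 103, 58.7 and 40.5 CPM. ADAM10, a protease that cleaves ephrin-A ligands and was named after its values were seen, had 73.1, 67.4 and 156 CPM. By role, 7 of 20 measured cytoskeletal effectors fell and 1 rose on day 10 against day 4 (35% and 5%), beside 15.8% and 17.1% of all. Of 11 measured other ligands and co-receptors, 3 rose and 0 fell on day 6 against day 4 (27.3% and 0%). The roles hold few genes, and both were named after their values were seen.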

How the data were processed

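RNA of 3 cultures, 1 per stage, was sequenced with an Illumina TruSeq RNA kit, per the labels' protocols. Per the submitters' processing notes, the build was OryCun2.0. Aligner, counter and strand setting: not given in the sources used here. Antisense and overlapping genes cannot be separated. The deposited tables give estimated counts (expected counts of fragments and of reads, many fractional) for 38696 coding sequences, and the authors' TPM, normalized for length and depth. Among the 24 members with several coding sequences and any fragment, 20 had a leading coding sequence within 3 percentage points of an even share, so isoforms are not told apart.

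Fragments were summed per gene name, rounded and scaled to CPM with TMM factors of 1.07, 0.958 and 0.974 (edgeR 4.0.16 in R 4.3.3). The minimum was 1 CPM in 1 library and the added value 1. Intervals used scipy 1.17.1. The code was tested on simulated data. All 67 names had a RefSeq symbol in mOryCun1.1, a table used for names and neighbours only. The members, the effector list and the marker lists were chosen with earlier results of these data known.

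Values in all 3 libraries are given for members past 2-fold in a comparison with at least 20 fragments in a library, and for the member with the highest TPM of each of 12 roles; from the effector list, for up to 3 genes in each direction. Other members are given by range or by value. No protein or promoter sequences were used here. Alternatives were other scalings, TPM, read counts, added values of 0.1 and 5, other minimums, the leading coding sequence and a 4-fold threshold.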

Additional observations from a re-analysis of the deposited data

Results flagged for a closer look

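A gene outside the members carried fragments under a name that the rule does not read. LOC100353815 has the symbol EPHA10 in the RefSeq gene table of mOryCun1.1, where EPHA10 is an Eph receptor with an inactive kinase domain. Its libraries of days 4, 6 and 10 had 12, 17 and 21 fragments, above the 3 fragments that a count of 0 allows, and neither rose nor fell. Counting it as a member changed none of the numbers of members that rose or fell. Groups of 1 library allow no check for a sample that stands apart from its group.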

How the results depend on the processing

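No paired analysis was possible because each stage has 1 library, and for the same reason no replicate could be left out. Numbers of members that rose or fell stayed within 1.5 times under plain library size, RLE factors, read counts, no minimum, a minimum of 5 CPM, the leading coding sequence and the addition of EPHA10. Under TPM, which set the median gene at -0.30 on the log2 scale, 4 of 47 members (8.51%) in place of 9 of 56 rose on day 6 against day 4, beside 4.53% of all genes. An added 0.1 gave 11 falls (19.6%) in place of 2 on day 10 against day 6, beside 10.2% of all genes. An added 5 gave 5 rises and 3 falls on day 6 against day 4 (8.93% and 5.36%, beside 3.68% and 3.52% of all genes), 1 rise on day 10 against day 6 (1.79%, beside 4.38%) and 9 falls on day 10 against day 4 (16.1%, beside 10.3%). At a 4-fold threshold, 2 rose and 2 fell on day 6 against day 4 (3.57% each, beside 1.18% and 0.671% of all genes), 1 rose and 1 fell on day 10 against day 6 (1.79% each, beside 1.68% and 0.25%), and 5 rose and 4 fell on day 10 against day 4 (8.93% and 7.14%, beside 4.7% and 3.09%). Of 48 calls of named members, 2 were lost with plain library size, 0 with RLE factors, 11 with TPM, 1 with read counts, 0 with an added 0.1, 20 with an added 5 and 5 with the leading coding sequence; none changed sign under these. These losses do not include the minimum of 5 CPM, which left 44 members measured. EPHA3, EFNB3, SEMA7A, SLIT1 and ROBO2 were not among them. An added value acts on low genes by construction, and the cause of the other changes was not tested. Depth limits genes under about 20 fragments, whose intervals span several-fold.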

Other observations

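Outside the guidance families, 5 named genes with the profile nearest to the median of the 14 members that fell on day 10 against day 4 were HYOU1, USP10, SENP3, AAR2 and KIF3B. Likeness was the distance between log2(CPM + 1) values centred on their mean over the 3 libraries, taken among 8056 named genes of at least 10 CPM, and it was 0.058 to 0.0683 for these. HYOU1, a chaperone of the endoplasmic reticulum, had 217 CPM on day 4, 131 on day 6 and 78.8 on day 10, and KIF3B, a kinesin motor, had 19.8, 11.7 and 6.88 CPM. Nearest to the median of the 10 members that rose were GADD45G, ABTB1, MAPK3, HTRA1 and GRTP1, at distances of 0.0423 to 0.055. MAPK3, the kinase ERK1, had 42.4, 104 and 162 CPM, and HTRA1, a secreted protease, had 78.2, 184 and 284 CPM. With 3 libraries, many genes share a profile this closely by their direction alone, so the names are a description.

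Markers of endothelial, melanocyte and immune cells, which also use guidance genes, are given as summed levels. The 7 endothelial markers summed to 8.35, 9.21 and 7.35 CPM on days 4, 6 and 10, with PECAM1 at 0. Among them KDR rose on day 10 against day 4, with 2.39, 6.80 and 5.84 CPM, while CDH5 and FLT1 fell. The 5 melanocyte markers summed to 3.67, 9.04 and 31.3 CPM with TYR, DCT and MLANA at 0, and PMEL held 28.5 CPM of the last sum. The 6 immune markers in the tables summed to 7.62, 27.2 and 70.2 CPM with TYROBP, FCER1G and CD3E at 0, and CD68, also a lysosomal gene, held 68.0 CPM of the last sum.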
